A study of Mus musculus with 4 samples.

Results

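Claudins are membrane proteins with 4 spans that form the paracellular seal of tight junctions, and 10 of their genes were followed here in otic vesicles, the epithelial sacs that become the inner ear. The members were Cldn1, Cldn3, Cldn4, Cldn6, Cldn7, Cldn8, Cldn9, Cldn11, Cldn12 and Cldn14, chosen by name and found by Ensembl number in the deposited table, 10 of its 34866 genes. The choice was made with earlier results of these data known. The libraries were 2 from C57/BL6 Meis2 mutant embryos, called knockout in the sample titles (KO 1 and KO 2), and 2 from C57/BL6 wild-type embryos (WT 1 and WT 2), all at embryonic day 11.5. The labels used here name neither the mutant allele nor the embryos or litters behind a library, and a p-value therefore covers only library-to-library spread, part of which can be technical. Meis2, a homeobox transcription factor gene, stood at 73.2 and 76.6 TPM in KO 1 and KO 2 and at 79.0 and 88.7 TPM in WT 1 and WT 2, so both KO libraries lay below both WT libraries by a small margin (log2 difference -0.16, SE 0.087). A gene-level value of this kind cannot show whether part of the gene is deleted.

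In an epithelium the set of claudins present decides which ions and small molecules can pass between the cells, and different claudins pair within 1 junction. In the inner ear such a seal keeps the potassium-rich endolymph inside the duct apart from the perilymph outside it, and loss of Cldn9, Cldn11 or Cldn14 is known to impair hearing in mice. At the vesicle stage the epithelium is a simple polarized sac embedded in mesenchyme. Values are TPM (an abundance scaled by transcript length and to a fixed total per library), so levels of different genes may be compared. TPM keeps no depth, so the counting error is unknown. In tissue libraries of this kind, fewer cells of a type and less RNA per cell cannot be told apart.

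The libraries held otic epithelium and also other cells. Oc90, which encodes the main protein of otoconia and marks otic epithelium, was at 561 and 602 TPM in KO 1 and KO 2 and at 912 and 724 TPM in WT 1 and WT 2, and all 12 otic epithelium markers listed were above the filter. All 14 markers of the periotic mesenchyme around the vesicle were above it too, with summed levels of 1522 and 1030 TPM in KO and of 1097 and 922 TPM in WT. Of 10 markers of surface ectoderm, only 4 had a mean of at least 1 TPM, and their summed level over all 10 was 32.3 and 13.5 TPM in KO and 24.8 and 26.5 TPM in WT. The keratin 5 gene Krt5 of that list was at 3.28 TPM in KO 1, 0.112 TPM in KO 2, 0.149 TPM in WT 1 and 0.0544 TPM in WT 2.

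Cldn6, a claudin of embryonic epithelia, was the most abundant member in every library. It was at 200.5 TPM in KO 1 and 222 TPM in KO 2, against 246 TPM in WT 1 and 250.02 TPM in WT 2. Cldn7, found along the lateral membranes of many epithelia, followed at 93.4 and 98.8 TPM in KO 1 and KO 2, against 107 and 121 TPM in WT 1 and WT 2. Both KO libraries lay below both WT libraries for each gene. Cldn4, a receptor for Clostridium perfringens enterotoxin, was at 59.3 and 58.7 TPM in KO 1 and KO 2, against 70.9 and 69.997 TPM in WT 1 and WT 2. Of the members it had the closest replicates relative to the gap between the genotypes. Together Cldn6, Cldn7 and Cldn4 made up 72.5% and 72.9% of the summed claudin TPM in KO 1 and KO 2, and 75.0% and 75.6% in WT 1 and WT 2.

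A middle group held Cldn3, Cldn9 and Cldn12. Cldn3, also an enterotoxin receptor, was at 49.9 and 46.9 TPM in KO 1 and KO 2, against 46.3 and 53.1 TPM in WT 1 and WT 2. Cldn9, a claudin of inner ear epithelia, was at 38.0 and 47.0 TPM in KO 1 and KO 2, against 46.6 and 44.3 TPM in WT 1 and WT 2. Cldn12, which lacks the C-terminal motif by which most claudins bind scaffold proteins, was at 27.9 and 30.7 TPM in KO 1 and KO 2, against 31.6 and 28.4 TPM in WT 1 and WT 2. The genotypes overlapped for each of the 3 genes.

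The other 4 members were low. Cldn11, a claudin of the stria vascularis and of myelin, was at 10.1 and 7.90 TPM in KO 1 and KO 2, against 6.91 and 4.49 TPM in WT 1 and WT 2. It was the 1 member for which both KO libraries lay above both WT libraries. Cldn1, needed for the water barrier of mouse epidermis, was at 4.53 and 4.9993 TPM in KO 1 and KO 2, against 5.75 and 6.57 TPM in WT 1 and WT 2. Cldn8, known from the kidney collecting duct, was at 3.23 and 3.29 TPM in KO 1 and KO 2, against 3.78 and 5.07 TPM in WT 1 and WT 2. Cldn14, a deafness gene in humans that acts in the organ of Corti, was at 0.513 and 0.467 TPM in KO 1 and KO 2, against 0.632 and 0.609 TPM in WT 1 and WT 2. Cldn1, Cldn8 and Cldn14 were lower in both KO libraries than in either WT library, and Cldn14 was too low to enter the test.

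**Figure D1:**
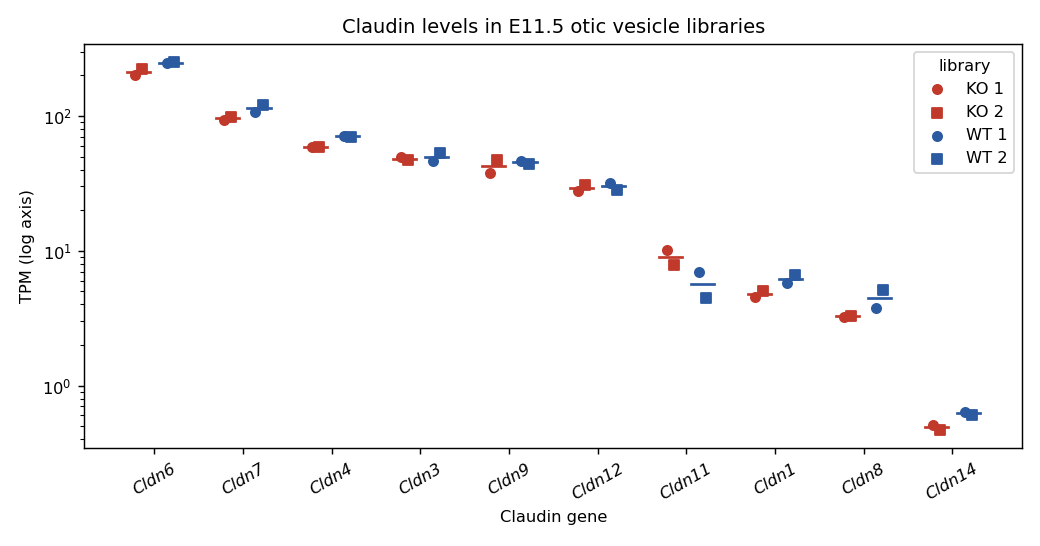
TPM of each claudin gene (log axis) in KO 1, KO 2, WT 1 and WT 2, with a short line at the mean of each genotype. The genes span from 0.467 TPM for Cldn14 in KO 2 to 250.02 TPM for Cldn6 in WT 2, and the KO and WT points overlap for Cldn3, Cldn9 and Cldn12.

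The order of levels was the same in both genotypes for the first 6 genes, and running down it each gene was separated from the next by a gap between all libraries of a genotype, except Cldn3 and Cldn9. Mean TPM of Cldn6 exceeded that of Cldn7 by 2.20-fold in KO and 2.17-fold in WT. Cldn3 and Cldn9 overlapped in both genotypes, with a ratio of mean TPM of 1.14 in KO and 1.09 in WT. Below Cldn12 the order differed. In KO, Cldn11 averaged 9.01 TPM and stood above Cldn1 at 4.77 TPM without overlap, while in WT, Cldn1 at 6.16 TPM and Cldn11 at 5.70 TPM overlapped, as did Cldn11 and Cldn8.

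Several members are neighbours on the chromosome. On GRCm38, with positions from the GENCODE M21 annotation, Cldn6 (ENSMUSG00000023906.2, chr17:23679249-23682446, plus strand) and Cldn9 (ENSMUSG00000066720.6, chr17:23682584-23684026, minus strand) end toward each other with 137 bases between them. Cldn6 was lower in KO without overlap and Cldn9 overlapped. Cldn4 (ENSMUSG00000047501.3, chr5:134945119-134946934, minus strand) and Cldn3 (ENSMUSG00000070473.4, chr5:134986214-134987472, plus strand) point away from each other, with 39279 bases between them. Here too 1 gene of the pair, Cldn4, was lower without overlap and the other, Cldn3, overlapped. The remaining members are Cldn7 (ENSMUSG00000018569.12, chr11:69964779-69967885), Cldn11 (ENSMUSG00000037625.7, chr3:31149920-31164324), Cldn12 (ENSMUSG00000046798.14, chr5:5489537-5514958) and, on chromosome 16, Cldn1 (ENSMUSG00000022512.2), Cldn8 (ENSMUSG00000050520.4) and Cldn14 (ENSMUSG00000047109.12). All 10 are annotated as protein-coding.

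Little sequence was shared between the members and other genes. Of the 31-base words in Cldn6 transcripts 0.407% also occurred in another gene on either strand, all of them in Cldn9, and 0.28% of those of Cldn4 occurred in Cldn3. Cldn3 had the highest share among the members, 1.22%, mostly with Wbscr25, an antisense gene that overlaps its end. Cldn8, Cldn11, Cldn12 and Cldn14 shared 0.

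The sequence before the start is shown for the members whose genotypes did not overlap and whose level was highest, Cldn6, Cldn7 and Cldn4, and for Cldn11, which lay the other way. Each run is from RefSeq (GRCm38.p6), 5′ to 3′ on the gene's own strand, and stops before the first annotated start. Capitals mark the hexamer CAGGTG or its reverse complement CACCTG, an E-box form that Snail and Zeb repressors are known to bind in epithelial genes.
Cldn6, chr17:23679115-23679248, plus strand: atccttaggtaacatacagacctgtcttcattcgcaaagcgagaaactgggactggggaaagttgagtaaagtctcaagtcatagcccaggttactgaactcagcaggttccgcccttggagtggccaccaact
Cldn7, chr11:69964529-69964778, plus strand: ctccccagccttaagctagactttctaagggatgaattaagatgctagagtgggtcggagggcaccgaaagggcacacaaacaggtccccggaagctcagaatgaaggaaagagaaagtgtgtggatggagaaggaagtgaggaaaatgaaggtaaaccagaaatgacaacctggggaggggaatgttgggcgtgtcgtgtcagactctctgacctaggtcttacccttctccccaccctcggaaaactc
Cldn4, chr5:134946935-134947184, minus strand: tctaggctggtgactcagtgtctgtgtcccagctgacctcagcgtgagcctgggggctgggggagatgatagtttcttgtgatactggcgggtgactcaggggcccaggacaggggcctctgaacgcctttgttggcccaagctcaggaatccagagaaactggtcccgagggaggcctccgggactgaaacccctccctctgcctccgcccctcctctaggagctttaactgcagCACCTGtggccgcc
Cldn11, chr3:31149670-31149919, plus strand: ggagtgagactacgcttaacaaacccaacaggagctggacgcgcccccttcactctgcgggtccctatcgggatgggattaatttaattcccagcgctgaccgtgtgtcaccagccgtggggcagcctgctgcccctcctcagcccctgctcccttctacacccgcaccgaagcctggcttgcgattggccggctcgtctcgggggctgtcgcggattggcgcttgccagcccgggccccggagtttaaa

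In the 250 bases before each start that RefSeq gives, 4 of the 13 windows of the 8 members in the promoter table held this E-box on either strand, against 17.2% of all 32851 windows. Cldn8 and Cldn9 are not among those 8. The sites are shown with 12 bases on either side. Those of Cldn6, Cldn7 and Cldn14 lie within the GENCODE bounds of their genes, downstream of the first annotated start. GENCODE begins Cldn6 at 23679249, so its site is absent from the run above.
Cldn6, 93 bases before the RefSeq start, chr17:23679260-23679289, plus strand: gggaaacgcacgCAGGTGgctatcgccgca
Cldn4, 14 bases before, chr5:134946931-134946960, minus strand: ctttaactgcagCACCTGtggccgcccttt
Cldn7, second start, 97 bases before, chr11:69965312-69965341, plus strand: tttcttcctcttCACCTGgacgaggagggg
Cldn7, second start, 57 bases before, chr11:69965352-69965381, plus strand: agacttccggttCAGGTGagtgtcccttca
Cldn14, inner start, 31 bases before, chr16:93929831-93929860, minus strand: ggggccaaccatCAGGTGgacggctcgggg
The hexamer TGACAG, a motif of Meis proteins, was in 0 of the 13 windows on either strand, against 15.9% of all windows, and the grainyhead motif AACCGGTT was in 0, against 0.116%. A match is a description of the letters in these windows and was not tied to binding.

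Between the genotypes, 8 of the 9 tested members had a lower fitted level in KO, against 38.4% of all genes tested. For 3 of the 8, Cldn3, Cldn9 and Cldn12, the genotypes overlapped. The other tested member, Cldn11, had a higher fitted level. The median difference of the 9 members was -0.23 in log2(TPM + 1), KO minus WT, against 0.03 over all 14496 genes tested. None passed the threshold: limma, adjusted by Benjamini-Hochberg over every gene whose mean reached 1 TPM, gave an adjusted p of 1.00 for each member. In that comparison 0% of genes were called at an adjusted p of 0.05, and 507 had an unadjusted limma p below 0.05. At an unadjusted p below 0.05, 3 members were lower (Cldn4, Cldn6 and Cldn7) and 0 were higher, where 1.41% of all genes tested were lower and 2.09% higher. For 5 of the 9 tested members both KO libraries lay below both WT libraries, against 10.5% of all genes tested, and for 1 member they lay above, against 19.2%. An exact permutation test of 2 libraries against 2 cannot give a two-sided p below 0.333.

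The abundant epithelial claudins differed by similar amounts. Cldn4 averaged 59.0 ± 0.400 TPM in KO and 70.5 ± 0.664 TPM in WT (SD, n = 2 each), and the log2 difference was -0.25 (SE 0.067; limma unadjusted p = 0.0149). Cldn6 averaged 211 ± 15.4 TPM in KO and 248 ± 2.74 TPM in WT (SD, n = 2 each), a difference of -0.23 (SE 0.078; limma unadjusted p = 0.0344). Cldn7 averaged 96.1 ± 3.77 TPM in KO and 114 ± 9.47 TPM in WT (SD, n = 2 each), a difference of -0.24 (SE 0.087; limma unadjusted p = 0.0424). The ratio of KO to WT means was 0.837 for Cldn4, 0.852 for Cldn6 and 0.842 for Cldn7. Leaving out 1 library moved the log2 difference of Cldn4 between -0.26 and -0.24, that of Cldn6 between -0.31 and -0.16 and that of Cldn7 between -0.33 and -0.16, the last without WT 2.

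Cldn1 and Cldn8 had larger standard errors than the abundant members. Cldn1 differed by -0.31 (SE 0.15) and Cldn8 by -0.34 (SE 0.20) in log2(TPM + 1), and for Cldn8 KO 1 minus WT 1 was -0.18 and KO 2 minus WT 2 was -0.50. The difference of Cldn8 was -0.17 without WT 2 and -0.51 without WT 1. Cldn14 averaged 0.490 ± 0.0326 TPM in KO and 0.620 ± 0.0164 TPM in WT (SD, n = 2 each), a ratio of means of 0.791. The middle group lay near 0, with log2 differences of -0.04 for Cldn3 (SE 0.098), -0.10 for Cldn9 (SE 0.12) and -0.03 for Cldn12 (SE 0.10). For each of these 3 KO 1 minus WT 1 and KO 2 minus WT 2 had opposite signs. For Cldn9, KO 1 lay below all other libraries, and without KO 1 its difference was 0.05.

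**Figure D2:**
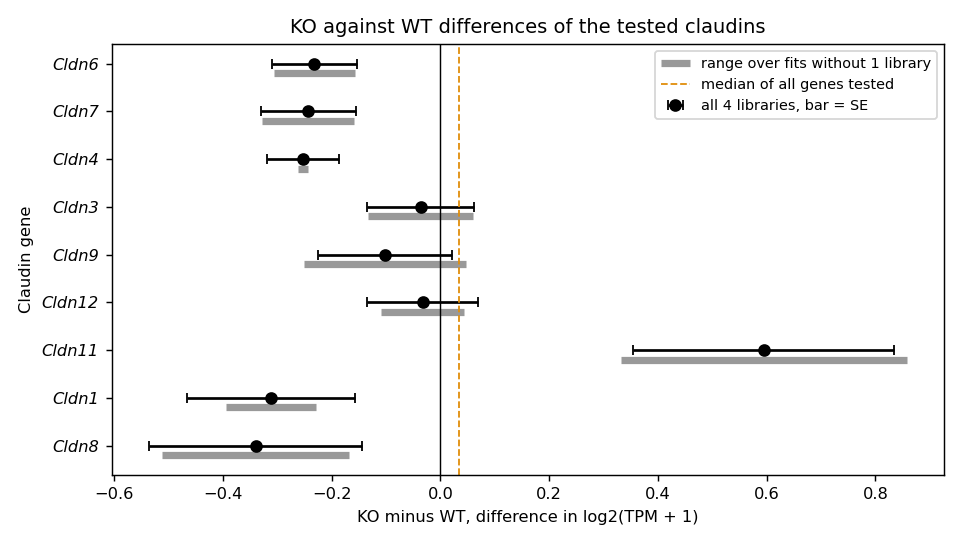
Difference in log2(TPM + 1), KO minus WT, of the 9 tested claudins (points, bars are the SE of the limma fit), with grey bands for the range over fits that leave out 1 library and a dashed line at the median of all genes tested, 0.03. The bands of Cldn3, Cldn9 and Cldn12 cross 0, and that of Cldn4 is the narrowest, from -0.26 to -0.24.

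Cldn11 had the highest difference of the members, 0.59 in log2(TPM + 1) (SE 0.24; limma unadjusted p = 0.0600). It averaged 9.01 ± 1.58 TPM in KO and 5.70 ± 1.71 TPM in WT (SD, n = 2 each), a ratio of means of 1.58. Its difference was 0.33 without WT 2 and 0.86 without WT 1, so WT 2 decides much of its size. Cldn11 and the periotic mesenchyme list were both highest in KO 1 and lowest in WT 2. The mean log2 level of the list relative to the 4 libraries was 0.37 in KO 1, -0.01 in KO 2, -0.02 in WT 1 and -0.34 in WT 2. On the same scale Cldn11 was at 0.46, 0.14, -0.03 and -0.56 in these libraries. KO 2 and WT 1 were nearly level for the list, and by summed TPM the list was lower in KO 2 than in WT 1, whereas Cldn11 was higher in KO 2. Of 14 mesenchyme genes, 13 had a higher and 1 a lower fitted level in KO, where 38.4% of all genes tested were lower. The part of mesenchyme RNA in the Cldn11 difference was not tested.

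Summed over the 10 members, claudin TPM was 487 in KO 1 and 521 in KO 2, against 566 in WT 1 and 583 in WT 2. The sum averaged 504 ± 23.7 TPM in KO and 575 ± 12.2 TPM in WT (SD, n = 2 each), a difference of -12.3% of the WT mean. The genotypes did not overlap. Lists of other cell types also differed between libraries. Of 10 endothelial genes, 8 had a higher and 2 a lower fitted level in KO, where 38.4% of all genes tested were lower. For 5 of the 8 the genotypes did not overlap, against 19.2% of all genes tested that were higher in this way. Pecam1 lay the other way without overlap, at 38.7 and 31.3 TPM in KO, against 42.2 and 54.9 TPM in WT. The summed TPM of the 10 was 304 and 251 in KO 1 and KO 2, against 253 and 268 in WT 1 and WT 2. Of 10 macrophage genes, 7 had a higher and 3 a lower fitted level in KO, where 38.4% of all genes tested were lower. Their summed TPM was 86.7 and 57.8 in KO, against 55.7 and 69.3 in WT. Summed neuron TPM was 234 and 755 in KO 1 and KO 2, against 289 and 523 in WT 1 and WT 2. Neurons thus stood apart by replicate number, with KO 2 and WT 2 high. The sum of 10 hindbrain neural tube genes was 264 and 218 TPM in KO, against 197 and 140.5 TPM in WT. Zic1 weighed most in it, at 146 and 129 TPM in KO, against 106 and 77.2 TPM in WT. Only 5 of the 10 were tested, and Sox1, Pax6, Hes5, Olig2 and Sox3 averaged below 1 TPM. That sum is therefore no measure of hindbrain cells. The part of other cell types in the claudin sum was not tested. Within the sum, Cldn11 took 2.08% and 1.52% in KO 1 and KO 2, against 1.22% and 0.770% in WT 1 and WT 2, and Cldn6 took 41.1% and 42.7% in KO, against 43.5% and 42.9% in WT.

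**Figure D3:**
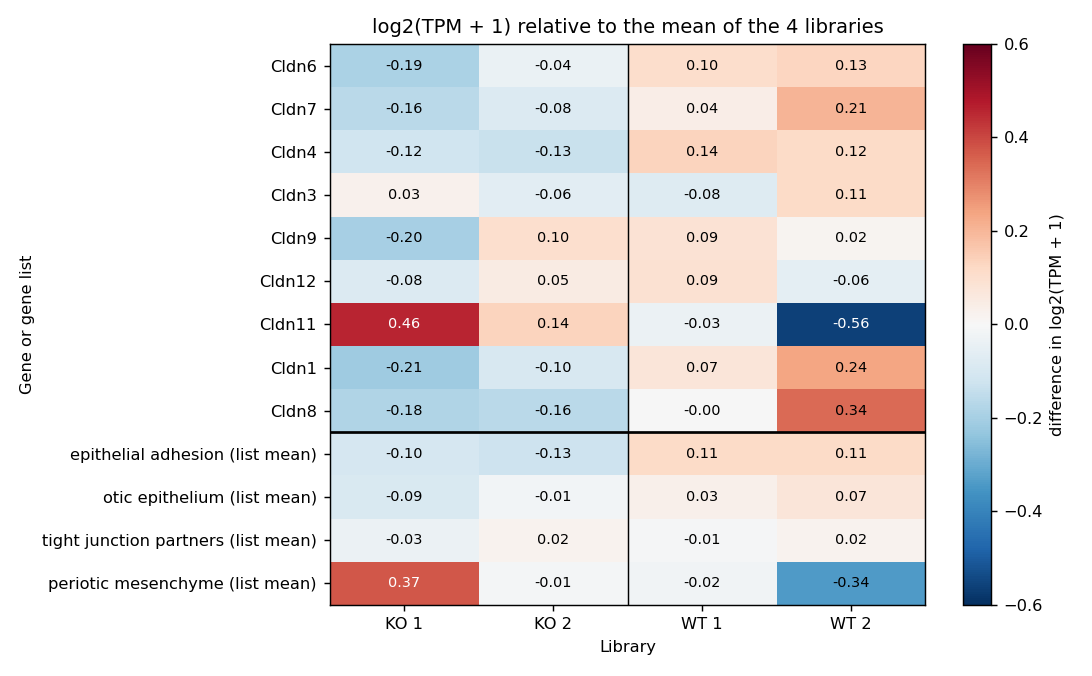
log2(TPM + 1) of each tested claudin relative to its mean over the 4 libraries (columns KO 1, KO 2, WT 1, WT 2; red higher, blue lower), with the mean over the tested genes of 4 lists below the line. Cldn6, Cldn7, Cldn4, Cldn1 and Cldn8 are below 0 in both KO libraries, and Cldn11 runs from 0.46 in KO 1 to -0.56 in WT 2.

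Other epithelial genes stood lower in KO as well. All 10 genes of an epithelial adhesion list had a lower fitted level in KO, against 38.4% of all genes tested, with a median log2 difference of -0.17. For 8 of them the genotypes did not overlap, against 10.5% of all genes tested that were lower in this way. By limma 0 were called, and 4 had an unadjusted p below 0.05, against 1.41% of all genes tested that were lower at that p. The list, like the members, was chosen with earlier results of these data known, so these counts only describe it. Krt8, which encodes a keratin of simple epithelia, was at 92.9 and 96.1 TPM in KO 1 and KO 2, against 126 and 124 TPM in WT 1 and WT 2. Its partner keratin gene Krt18 was at 106 and 107 TPM in KO 1 and KO 2, against 131 and 134 TPM in WT 1 and WT 2. Epcam, an epithelial surface protein that binds claudin-7, was at 180.2 and 188 TPM in KO, against 210 and 198 TPM in WT (libraries 1 and 2 of each), and Spint2, a protease inhibitor gene, averaged 209 ± 4.86 TPM in KO and 233 ± 0.591 TPM in WT (SD, n = 2 each).

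Set against the mean of these 10 epithelial genes in each library, a comparison added after the values were seen, the differences of the abundant claudins were near 0. On that scale Cldn6 differed by -0.01 (SE 0.084), Cldn7 by -0.02 (SE 0.09) and Cldn4 by -0.03 (SE 0.067) in log2(TPM + 1), while Cldn3 was at 0.19 (SE 0.096), Cldn9 at 0.12 (SE 0.13) and Cldn12 at 0.19 (SE 0.11). Cldn11 was at 0.82 (SE 0.24). The median of the 9 members was -0.01. This scale depends on the genes in the reference. Rab25 (-0.43), Krt8 (-0.40), Krt19 (-0.36) and Krt18 (-0.31) had the lowest log2 differences of the list and pull its mean below its median of -0.17. A reference without these genes was not fitted. No member passed the adjusted threshold on this scale either, with a smallest limma adjusted p of 0.137. Relative to Epcam alone, the ratio of Cldn4 to Epcam TPM was 0.329 and 0.312 in KO 1 and KO 2, against 0.338 and 0.354 in WT 1 and WT 2, without overlap. The ratio of Cldn6 to Epcam TPM was 1.11 and 1.18 in KO 1 and KO 2, against 1.17 and 1.26 in WT 1 and WT 2, and overlapped.

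**Figure D4:**
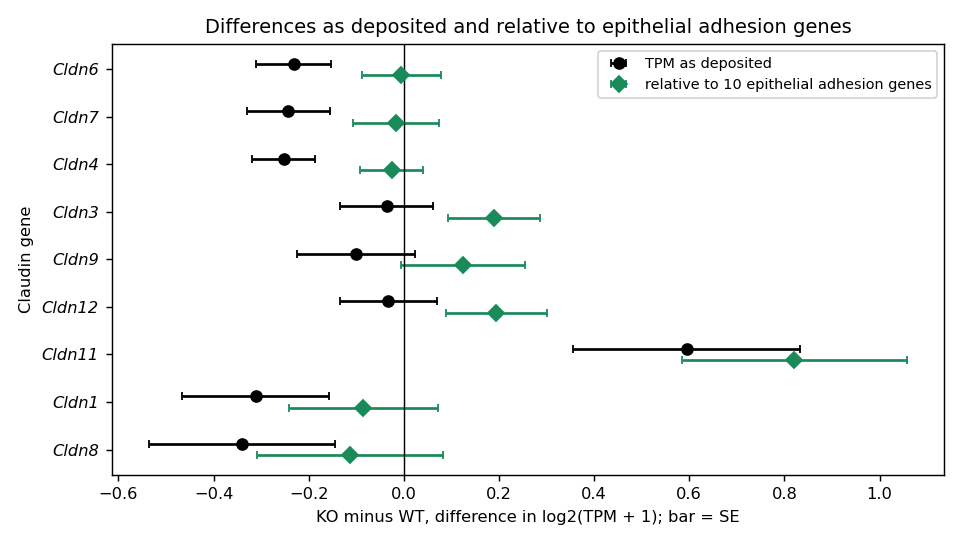
Difference in log2(TPM + 1), KO minus WT, of each tested claudin with TPM as deposited (circles) and relative to the mean of 10 epithelial adhesion genes in each library (diamonds); bars are the SE of the limma fit. On the second scale Cldn6, Cldn7 and Cldn4 lie between -0.03 and -0.01, and Cldn11 is at 0.82.

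Claudins are held at the junction by scaffold and partner proteins, and those genes did not share a direction. Of 27 tight junction partner genes tested, 14 had a lower and 13 a higher fitted level in KO. Of all genes tested, 38.4% were lower. The median log2 difference of the 27 was -0.0047. For 7 of the 27 both KO libraries lay below both WT libraries, against 10.5% of all genes tested. For 5 they lay above, against 19.2%. By limma 0 were called and 2 had an unadjusted p below 0.05, where 1.41% of all genes tested were lower and 2.09% higher. The polarity gene Crb3 had the smallest limma p of the list and was at 20.6 and 22.3 TPM in KO 1 and KO 2, against 25.3 and 28.6 TPM in WT 1 and WT 2, a difference of -0.32 (SE 0.11). Amotl2, an angiomotin family gene, lay the other way, at 72.7 and 74.2 TPM in KO 1 and KO 2, against 60.5 and 66.3 TPM in WT 1 and WT 2, a difference of 0.21 (SE 0.079). Sympk, which encodes the junction and nuclear protein symplekin, was the most abundant of the list and overlapped, with means of 105 TPM in KO and 103 TPM in WT.

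Among 12 tested regulators of the epithelial state, 3 had a lower and 9 a higher fitted level in KO, where 38.4% of all genes tested were lower. By limma 0 were called, and 0 had an unadjusted p below 0.05. Esrp1, an epithelial splicing factor gene, was at 40.3 and 48.2 TPM in KO 1 and KO 2, against 49.8 and 52.1 TPM in WT 1 and WT 2. Grhl2, whose grainyhead factor is known to act on Cldn3 and Cldn4 in mouse epithelia, was at 16.6 and 18.98 TPM in KO 1 and KO 2, against 19.4 and 19.9 TPM in WT 1 and WT 2. Both were lower in KO without overlap. Snai2, a repressor gene of mesenchymal cells, was at 32.2 and 24.0 TPM in KO 1 and KO 2, against 26.5 and 19.98 TPM in WT 1 and WT 2, and Twist1, also of mesenchyme, averaged 156 ± 33.7 TPM in KO and 141 ± 22.0 TPM in WT (SD, n = 2 each). The genotypes overlapped for both. Of 70 tested genes in the lists of claudins, junction partners, claudin-like proteins, regulators and epithelial adhesion, the 3 with the profile nearest to Cldn6 were Esrp1, St14 and Grhl2, at Euclidean distances of 0.083, 0.084 and 0.099 over 4 libraries in centred log2(TPM + 1). St14 encodes the epithelial protease matriptase. Among all genes tested, 77 were at least as near as Grhl2.

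Few claudin genes outside the 10 reached 1 TPM. Of 23 others in the table, 12 were listed at 0 in all 4 libraries and 6 averaged 1 TPM or more. Cldn5, the claudin of endothelium, was the most abundant at 29.5 and 17.1 TPM in KO 1 and KO 2, against 17.9 and 26.2 TPM in WT 1 and WT 2. Cldn10, an ion-selective claudin gene, was at 0.940 and 0.874 TPM in KO 1 and KO 2, against 1.62 and 1.77 TPM in WT 1 and WT 2, lower in KO without overlap and with a log2 difference of -0.50 (SE 0.23). Cldn23 averaged 1.14 ± 0.323 TPM in KO and 1.28 ± 0.210 TPM in WT (SD, n = 2 each), with overlap. Cldn24 averaged 14.0 ± 2.08 TPM in KO and 14.0 ± 1.63 TPM in WT (SD, n = 2 each), but 69.8% of its 31-base words also occur in transcripts of Wwc2, which was at 23.8 and 20.5 TPM in KO 1 and KO 2 and at 21.4 and 19.7 TPM in WT 1 and WT 2. Cldn34c1, at 11.7 ± 0.572 TPM in KO and 10.9 ± 0.242 TPM in WT (SD, n = 2 each), shared 19% of its words with other genes. The values of these last 2 genes are therefore uncertain.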

How the data were processed

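RNA from otic vesicles was sequenced in 4 libraries, 2 KO and 2 WT. The authors deposited gene-level TPM, made with Salmon 0.9.1 on GRCm38 per the submitters' processing notes; no annotation release is named there. Each library summed to 1000000 TPM. Gene numbers were matched to GENCODE M21, which named 34582 of 34866 genes. Groups and replicate numbers came from the sample titles. Values were transformed to log2(TPM + 1), and 14496 genes averaging 1 TPM or more were fitted by limma 3.58.1 (R 4.3.3). The model held genotype alone, variances were moderated toward a mean-variance trend, and two-sided p-values were adjusted by Benjamini-Hochberg, with a threshold of 0.05. The pseudocount of 1 understates changes of low genes. The fit was tested on simulated data. Depth is unknown, so no counting interval is given. The members and gene lists were chosen with earlier results of these data known. Named genes were all members, other claudins averaging 1 TPM or more and the 3 nearest to Cldn6. The 2 most abundant and the 2 with the smallest p were named from the junction partner, claudin-like, regulator and epithelial adhesion lists. Oc90, Krt5, Wwc2 and Meis2 were added as checks. Pecam1, Zic1, Rab25, Krt19, Wbscr25 and the hindbrain genes below 1 TPM were named outside this rule. Alternatives were other pseudocounts, filters, scalings and moderation, a replicate block and leaving out each library. Motifs were searched on both strands of RefSeq promoter windows, and 31-base words on both strands of GENCODE transcripts.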

Additional observations from a re-analysis of the deposited data

How the results depend on the processing

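No member passed the adjusted threshold in any of the 116 combinations of member and alternative, and the sign was kept in all but 8. With 1 library left out, Cldn3 ranged from -0.13 (without WT 1) to 0.060 (without WT 2), and was 0.01 without KO 2; Cldn9 from -0.25 to 0.048 (without KO 1); and Cldn12 from -0.11 to 0.0435 (without WT 1), with 0.03 without KO 1. The other sign changes were these 3 genes relative to the epithelial adhesion mean (0.19, 0.12 and 0.19), a scale added after the values were seen. The members' median log2 difference of -0.23 was -0.18 with no filter, which admits Cldn14, -0.17 with a mean of at least 5 TPM, which drops Cldn8, -0.0053 relative to the epithelial adhesion mean, and from -0.25 to -0.16 with 1 library left out. Over all genes, 0 were called with the 4 libraries, and from 0 to 10 with 1 left out (2 without KO 1, 10 without KO 2). The summed TPM difference of -70.6 ranged from -87.3 to -53.8 with 1 library left out. A replicate block called 0 genes and left the median at -0.23; the libraries share only a number, with a correlation over genes of 0.42 between the deviations of KO 1 and WT 1 from their group means. With 2 libraries per genotype and no depth, small differences cannot be resolved.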

Other observations

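Claudin-like genes of the wider family, which share the same fold in the membrane, included members of other tissues. Of 12 listed, 7 were tested. Of these, 2 had a lower and 5 a higher fitted level in KO, where 38.4% of all genes tested were lower. By limma 0 were called (0 also at an unadjusted p below 0.05). Pmp22, a gene of peripheral myelin and mesenchyme, was at 26.6 and 17.4 TPM in KO 1 and KO 2, against 18.3 and 11.9 TPM in WT 1 and WT 2. Emp1, which encodes an epithelial membrane protein, was at 32.9 and 23.9 TPM in KO 1 and KO 2, against 25.3 and 13.3 TPM in WT 1 and WT 2. Both were highest in KO 1 and lowest in WT 2, as Cldn11 was. Cldnd1 averaged 68.7 ± 2.57 TPM in KO and 67.2 ± 4.30 TPM in WT, and Tmem47 32.9 ± 0.781 TPM in KO and 33.0 ± 3.53 TPM in WT (SD, n = 2 each).

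Cldn13, a rodent claudin known from blood-forming tissue, was at 1.88 and 1.75 TPM in KO 1 and KO 2, against 1.00 and 2.98 TPM in WT 1 and WT 2. The summed level of 10 erythroid genes was 13478 and 15331 TPM in KO 1 and KO 2, against 10844 and 25960.1 TPM in WT 1 and WT 2, so both were lowest in WT 1 and highest in WT 2. The part of blood RNA in the Cldn13 values was not tested.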
